A study of Rattus norvegicus with 5 samples.

Results

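The proteasome is the protein-degrading machine of the cell, and 42 genes of its subunits and partners were followed here in rat fat, out of 14217 genes with a probe set of their own on the array. They are the genes whose symbol starts with Psma, Psmb, Psmc, Psmd, Psme or Psmf and a number, on probe sets annotated to that symbol alone, with the probe set of highest mean over the 5 arrays standing for each gene. The symbol rule took 5 inducible genes, 7 alpha and 6 beta constitutive subunits of the 20S core, 6 ATPase and 11 non-ATPase subunits of the 19S regulatory particle, 3 assembly chaperones of the 19S particle, and the activator Psme4 and the inhibitor Psmf1. It also took 2 genes that are not subunits, Psmc3ip and Psme3ip1, which encode proteins named for binding one. The core subunit Psmb6 and the activator Psme3 lie only on probe sets annotated to several genes, so they are not analysed here.

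The tissue was the mesenteric fat that surrounds the pancreas, taken from male Wistar rats described as 7 weeks old, with 1 independent sample per array. The cafeteria group, labelled obese, has 2 samples and received food in which fat supplied 66% of the calories. The standard group, labelled lean, has 3 samples and received chow in which fat supplied 8%. Either diet lasted 30 days, and the rats were caged singly. Values are log2 expression levels, and a difference is always cafeteria minus standard. Adipocyte markers were at high levels on every array: the mean over Adipoq, Plin1, Fabp4, Lipe, Cidec and Pparg was 12.09 and 12.24 on the cafeteria arrays, against 11.76, 11.94 and 12.00 on the standard arrays. Standard replicate 1 also carried acinar cell transcripts of the pancreas, with a mean over 8 markers of 9.07, against 4.28 to 4.95 on the other arrays. Of these markers, Cpa1 was not high there alone. It read 7.38 and 9.07 on the cafeteria arrays, against 9.37, 5.34 and 5.94 on the standard arrays. Standard replicate 3 was highest for 4 smooth muscle markers, with a mean of 11.29, against 8.22 to 9.79 on the other arrays. With 2 arrays against 3, the number of arrays limits the precision of every value, and across 21729 probe sets tested with limma the share called at an adjusted p of 0.05 was 0%, the smallest adjusted p being 0.0958. At an unadjusted p under 0.05, limma gave 2754 probe sets.

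As background, the 20S core is a barrel of alpha and beta rings, and its proteolytic sites lie on the beta subunits encoded by Psmb5, Psmb6 and Psmb7. The 19S particle caps the barrel, recognises ubiquitin chains, unfolds the substrate with its ATPases and feeds it in. In cells exposed to interferon gamma, and in many immune cells at rest, Psmb8, Psmb9 and Psmb10 take the places of Psmb5, Psmb6 and Psmb7 in newly built cores to form the immunoproteasome, and Psme1 and Psme2 together form the PA28 activator. The products are peptides suited to loading on class I molecules of the major histocompatibility complex.

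The promoters of the inducible genes are shown because interferon-responsive motifs are the feature that sets this class of genes apart in textbooks. RefSeq's promoter table, on build GRCr8, gives a window from 250 bases before to 50 bases after the annotated start, and it held 38 of the 42 genes and all 5 inducible ones. Capitals mark each match, on either strand, to the interferon-stimulated response element GAAANNGAAA or to the gamma-activated sequence TTCNNNGAA. The windows shown are those of the 3 inducible genes with a match, and that of Tap1, a peptide transporter gene that lies next to Psmb9.
Psmb8, chr20:4656982-4657281, minus strand: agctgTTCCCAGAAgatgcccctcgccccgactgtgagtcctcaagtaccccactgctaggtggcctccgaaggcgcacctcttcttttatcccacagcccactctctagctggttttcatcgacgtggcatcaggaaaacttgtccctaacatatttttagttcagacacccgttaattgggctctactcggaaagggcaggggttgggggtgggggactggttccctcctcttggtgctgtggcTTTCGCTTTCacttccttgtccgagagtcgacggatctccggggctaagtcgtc
Psmb10, chr19:50743243-50743542, minus strand: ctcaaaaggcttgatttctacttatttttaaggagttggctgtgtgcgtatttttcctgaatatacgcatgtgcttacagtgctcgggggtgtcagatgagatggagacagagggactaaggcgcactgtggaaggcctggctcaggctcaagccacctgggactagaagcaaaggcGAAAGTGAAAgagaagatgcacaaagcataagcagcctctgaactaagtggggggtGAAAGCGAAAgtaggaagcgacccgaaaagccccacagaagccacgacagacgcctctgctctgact
Psme2, chr15:33052702-33053001, minus strand: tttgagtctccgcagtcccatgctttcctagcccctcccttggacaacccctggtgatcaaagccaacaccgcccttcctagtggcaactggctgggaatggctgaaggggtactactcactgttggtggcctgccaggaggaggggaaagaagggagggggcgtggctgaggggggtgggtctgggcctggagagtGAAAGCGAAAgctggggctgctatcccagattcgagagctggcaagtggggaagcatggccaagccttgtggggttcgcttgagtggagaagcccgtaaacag
Tap1, chr20:4668494-4668793, minus strand: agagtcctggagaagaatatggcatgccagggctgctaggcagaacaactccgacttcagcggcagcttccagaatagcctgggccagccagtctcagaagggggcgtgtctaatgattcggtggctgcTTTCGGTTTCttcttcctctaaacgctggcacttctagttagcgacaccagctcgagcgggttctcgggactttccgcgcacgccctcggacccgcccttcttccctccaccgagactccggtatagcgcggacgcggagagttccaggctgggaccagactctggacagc

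The interferon-stimulated element was found in the windows of Psmb8, Psmb10 and Psme2, 3 of the 5 inducible genes, and in 3 of 26 windows of constitutive 20S and 19S genes, Psma4, Psmb3 and Psmd7. Over all 33469 windows of the table, 3.92% held it. Psmb10 had a pair of matches, whose first bases lay at -73 and -17 relative to the start, Psme2 had one at -53 and Psmb8 one at -4. The gamma-activated sequence was in the Psmb8 window alone among the inducible genes, at -245, in 3 constitutive windows (Psmc6, Psmd3 and Psmd7) and in 8.87% of all windows. Psmb9 and Tap1 start 457 bases apart on opposite strands of chromosome 20 and are read away from each other, and the match in the Tap1 window lies between their starts, 336 bases before that of Psmb9 and so outside the Psmb9 window. Neither motif was in the windows of Psmb9 and Psme1, which says only that these letters are not in these windows. The antioxidant response element TGANNNNGC, the type of site used by the factors that raise constitutive subunits together, was in 15 of 26 constitutive windows, 1 of 5 inducible windows (Psmb9) and 40.5% of all windows. The CCAAT box was in 14 of the 26, in 2 of the 5 and in 37.5% of all, and the NF-kB site in 3 of the 26, 0 of the 5 and 7.51% of all. Matches are a description of the letters and were not tested against the array values.

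The question for the array values was whether inducible subunits differed between the diets in another way than the constitutive ones. The genes and tests were chosen with earlier results of these data known, so the counts describe these arrays. All 5 inducible genes had lower means in cafeteria samples, while the 30 constitutive 20S and 19S genes had 18 higher and 12 lower means. The inducible genes had a median difference of -0.32, the constitutive 20S genes -0.0047 and the 19S genes 0.05, beside a median of -0.0036 over all 21729 probe sets tested. At an unadjusted limma p under 0.05, 4 of the 5 inducible genes were lower, Psmb8, Psmb9, Psmb10 and Psme1, beside 6.62% of all probe sets lower at that threshold. None of the 30 constitutive genes reached it in either direction on the probe set standing for the gene, beside a further 6.05% of all probe sets higher. A second, dimmer Psmc6 probe set was higher at it, at 0.34 ± 0.09 (limma, unadjusted p = 0.0153, adjusted p = 0.301). With 1 standard array left out, Psmb8 was always among the inducible genes lower at that threshold. There were 2 such genes without standard replicate 1, 2 without replicate 2 and 3 without replicate 3. The shares of all probe sets lower at it were then 5.06%, 4.59% and 5.97%. Of the constitutive genes, only Psmd8 reached that threshold with 1 standard array left out. Psmd8 was higher without standard replicate 2, beside 988 of 21729 probe sets. Without cafeteria replicate 1 or 2, which leaves 1 cafeteria array, the median difference of the inducible genes was -0.42 or -0.23. That of the 19S genes was 0.09 or 0.0091. No member passed the test adjusted over all probe sets. As the tissue is a mixture, fewer cells of a type and less RNA per cell cannot be told apart in any of these values.

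Psmb8, the inducible subunit that replaces Psmb5 at the chymotrypsin-like site, read 8.20 and 7.87 in cafeteria samples, against 9.42, 9.42 and 9.11 in standard samples. Both cafeteria arrays lay well below every standard array. The difference was -1.28 ± 0.15 (SE), a 2.43-fold lower level, with a 95% interval of -1.69 to -0.87 (limma, unadjusted p = 0.000662, adjusted p = 0.222). Only 58 of the 21729 probe sets, 0.267%, had a more negative difference. Leaving out 1 array at a time kept it between -1.45 and -1.12.

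Psmb9, which replaces Psmb6 at the caspase-like site, read 9.07 and 8.83 in cafeteria samples and 9.82, 9.36 and 9.38 in standard samples. The groups did not overlap, and standard replicate 1, the array with acinar transcripts, was the highest. The difference was -0.57 ± 0.18, a 1.49-fold lower level (95% interval -1.06 to -0.09, limma adjusted p = 0.346). It was -0.42 without standard replicate 1 and -0.69 without cafeteria replicate 1.

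Psmb10, which replaces Psmb7 at the trypsin-like site, read 8.12 and 7.93 in cafeteria samples and 8.42, 8.43 and 8.19 in standard samples. The lowest standard array, replicate 3, was only just above the higher cafeteria array. The difference was -0.32 ± 0.11, a 1.25-fold lower level (95% interval -0.62 to -0.03, limma adjusted p = 0.358).

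Psme1, the alpha chain of the PA28 activator, read 11.05 and 10.93 in cafeteria samples and 11.36, 11.28 and 11.16 in standard samples, again without overlap. Its difference was -0.28 ± 0.09, a 1.21-fold lower level (95% interval -0.50 to -0.05, limma adjusted p = 0.336). A second, dim Psme1 probe set, with a highest value of 4.69, gave 0.29 ± 0.15 in the other direction. Psme2, the beta chain, read 9.65 and 9.54 in cafeteria samples and 9.86, 9.67 and 9.61 in standard samples, where the groups overlapped. The difference of Psme2 was -0.12 ± 0.10 (limma adjusted p = 0.576), and it was -0.05 without standard replicate 1.

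**Figure D1:**
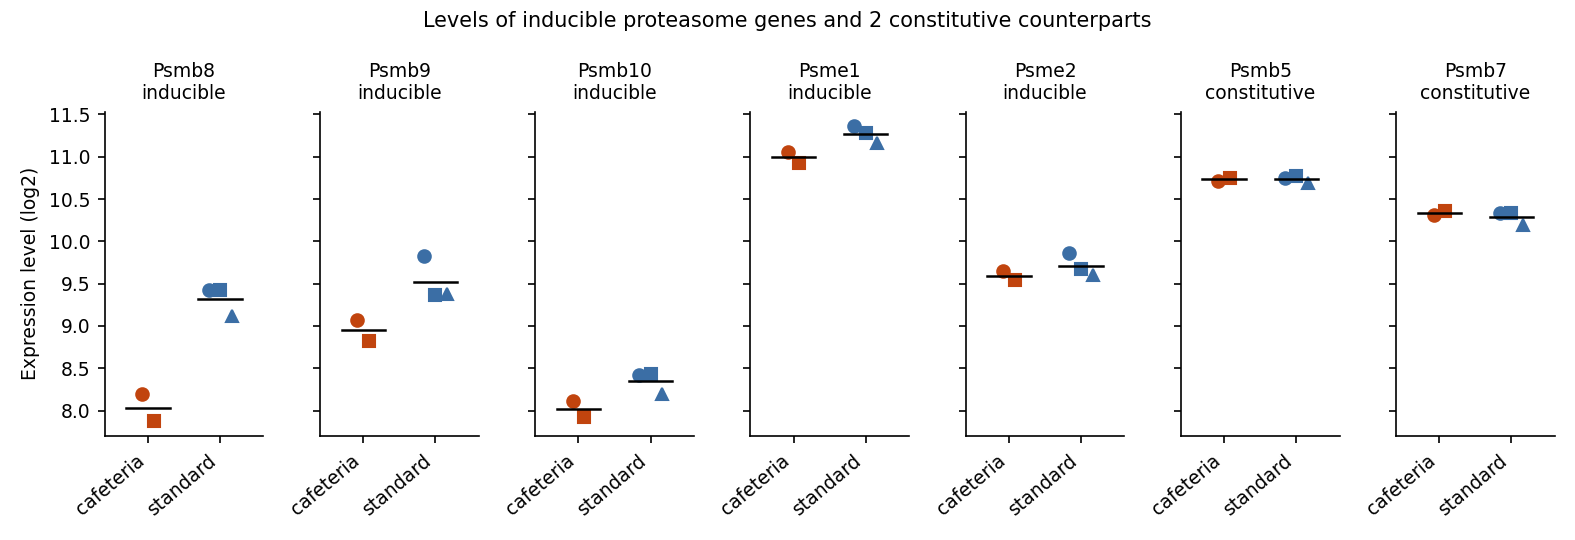
Log2 expression level (vertical axis) of the 5 inducible genes and of Psmb5 and Psmb7, the constitutive counterparts of Psmb8 and Psmb10, with cafeteria arrays in red and standard arrays in blue, replicates 1, 2 and 3 as circle, square and triangle, and the group mean as a bar. The cafeteria arrays lie below all standard arrays for Psmb8, Psmb9, Psmb10 and Psme1 and overlap them for Psme2, Psmb5 and Psmb7, and levels of different genes are not comparable.

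In all, 4 of the 5 inducible genes had both cafeteria arrays below all standard arrays, beside 14.1% of all probe sets tested. Among the 30 constitutive 20S and 19S genes 0 did so on the probe set standing for the gene. Both cafeteria arrays lay above all standard arrays for 4 of the 30, beside 13.3% of all probe sets tested. The next brightest Psmd11 probe set, with a difference of -0.15, did have both cafeteria arrays below all standard arrays.

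The constitutive counterparts differed little between the diets. Psmb5, the constitutive chymotrypsin-like subunit, read 10.72 and 10.75 in cafeteria samples and 10.75, 10.78 and 10.68 in standard samples, a difference of -0.0047 ± 0.05 (95% interval -0.15 to 0.14, limma adjusted p = 0.976). Psmb7, the constitutive trypsin-like subunit, read 10.31 and 10.36 in cafeteria samples and 10.33, 10.33 and 10.19 in standard samples, a difference of 0.05 ± 0.07 (95% interval -0.13 to 0.23, limma adjusted p = 0.754). For either gene the cafeteria values lay within or beside the spread of the standard arrays.

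The contrast between an inducible subunit and the one it replaces was tested within each array for the 2 pairs that could be measured. Set to a standard mean of 0, the log2 ratio of Psmb8 to Psmb5 was -1.10 and -1.46 in cafeteria samples and 0.09, 0.06 and -0.15 in standard samples. The ratio thus differed by -1.28, or 2.43-fold, with SDs of 0.25 (n = 2) and 0.13 (n = 3) in cafeteria and standard samples. The log2 ratio of Psmb10 to Psmb7 was -0.25 and -0.49 in cafeteria samples and 0.03, 0.04 and -0.06 in standard samples. That ratio differed by -0.37, or 1.29-fold, with SDs of 0.17 (n = 2) and 0.06 (n = 3). Neither ratio overlapped between the diets. A two-sided exact permutation test returned p = 0.1 for either pair, not adjusted over the 2 pairs. No smaller p is possible with 10 divisions of the 5 arrays.

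The remaining inducible genes were set against the mean of the 13 constitutive 20S genes on the same array, again with a standard mean of 0. Psmb9 was then at -0.41 and -0.71 in cafeteria samples and at 0.22, -0.21 and -0.00066 in standard samples. Psme1 was at -0.18 and -0.35 in cafeteria samples and at 0.0042, -0.04 and 0.03 in standard samples. Psme2 was at -0.03 and -0.18 in cafeteria samples and at 0.06, -0.10 and 0.04 in standard samples, so that its groups still overlapped. Cafeteria replicate 2 was the lower of the cafeteria arrays for each of these genes, as it was for Psmb8 and Psmb10.

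**Figure D2:**
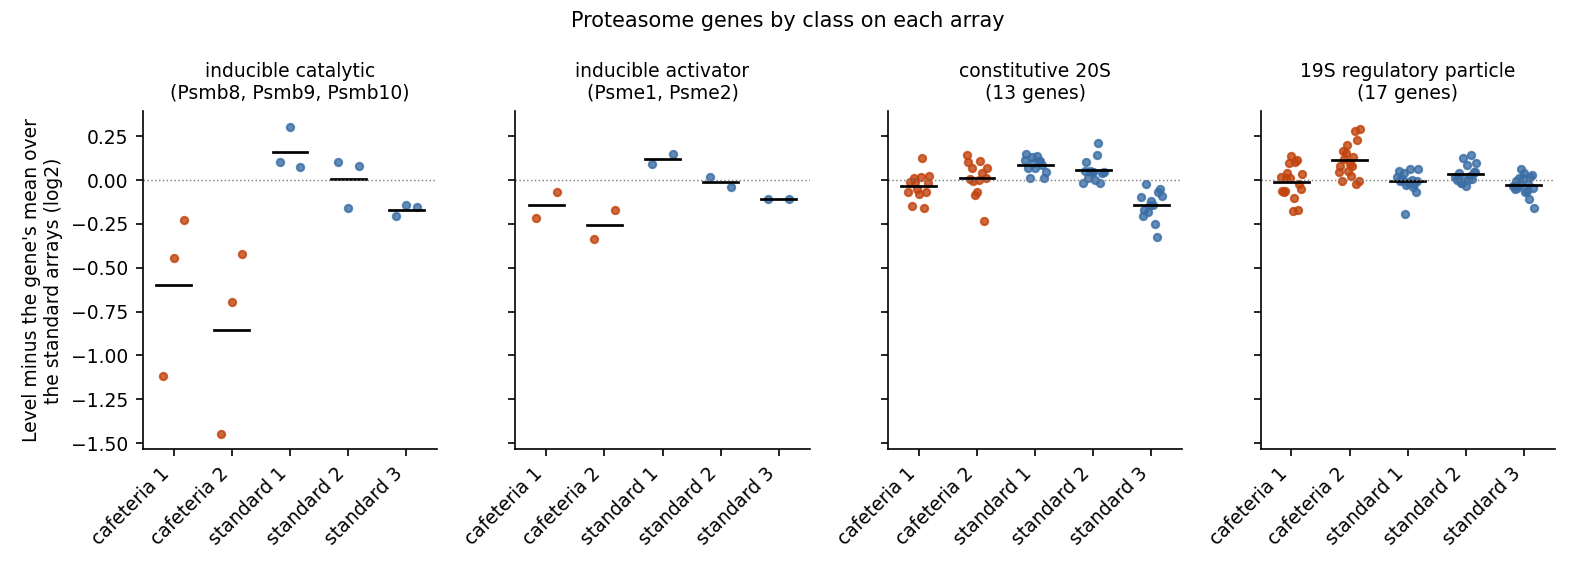
Level of each gene on each array minus that gene's mean over the 3 standard arrays (log2, vertical axis), with 1 point per gene and a bar for the class mean, cafeteria arrays in red and standard arrays in blue. The inducible catalytic genes average -0.60 and -0.85 on the cafeteria arrays, while constitutive 20S genes average -0.03 and 0.01 there and lie lowest, at -0.14, on standard replicate 3.

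The core subunits had a narrow range of diet differences, and their largest shift was in a single standard array. Over the 7 alpha subunits, which form the outer rings and the gate, differences ran from -0.07 to 0.05. Psma2 stood at the top with 0.05 ± 0.13 (limma adjusted p = 0.873) and Psma7 at the bottom with -0.07 ± 0.08 (limma adjusted p = 0.655). Over the 6 constitutive beta subunits they ran from -0.15 to 0.12. Psmb4, a structural beta subunit, had -0.15 ± 0.08 (limma adjusted p = 0.497), with 11.10 and 10.94 in cafeteria samples and 11.26, 11.15 and 11.10 in standard samples. Psmb2, another structural subunit, had 0.12 ± 0.14 (limma adjusted p = 0.694), with 10.25 and 10.23 in cafeteria samples and 10.23, 10.27 and 9.88 in standard samples, so that standard replicate 3 alone was low. All 13 core genes lay below their own standard mean on standard replicate 3, with a class mean of -0.14, and all 13 lay above it on standard replicate 1, with a class mean of 0.09.

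The 19S genes were mostly a little higher in cafeteria samples, 12 of 17, with differences of -0.10 to 0.20. Of the ATPases, which unfold the substrate, 5 of 6 were higher, with a median difference of 0.04. The highest was Psmc6, with 8.80 and 8.91 in cafeteria samples and 8.80, 8.74 and 8.73 in standard samples, a difference of 0.10 ± 0.06 (limma adjusted p = 0.508). The other Psmc6 probe sets gave 0.34 ± 0.09 and 0.37 ± 0.19 (limma adjusted p = 0.301 and 0.489), larger and in the same direction. Psmc3 was the only lower ATPase gene, with -0.04 ± 0.05.

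Of the 11 non-ATPase subunits 7 were higher, with a median of 0.10. Psmd8, a lid subunit, had the largest difference, 0.20 ± 0.10 (limma adjusted p = 0.492), with 10.07 and 10.24 in cafeteria samples and 9.92, 10.10 and 9.85 in standard samples, which overlapped. Psmd7, a lid subunit that pairs with the deubiquitinase Psmd14, had the smallest p of the class. It read 9.41 and 9.44 in cafeteria samples and 9.31, 9.33 and 9.29 in standard samples, a difference of 0.12 ± 0.05 (limma adjusted p = 0.431), although a second probe set gave -0.01 ± 0.07. Psmd11, a lid scaffold subunit, was lowest at -0.10 ± 0.07 (limma adjusted p = 0.531), and its next brightest probe set gave -0.15 ± 0.07. The 19S class stood higher on 1 cafeteria array than on the other: its mean, with the standard mean at 0, was -0.0084 on cafeteria replicate 1 and 0.11 on cafeteria replicate 2, against -0.0080, 0.03 and -0.03 on the standard arrays. The median difference of the 17 genes was accordingly 0.0091 without cafeteria replicate 2 and 0.09 without cafeteria replicate 1.

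**Figure D3:**
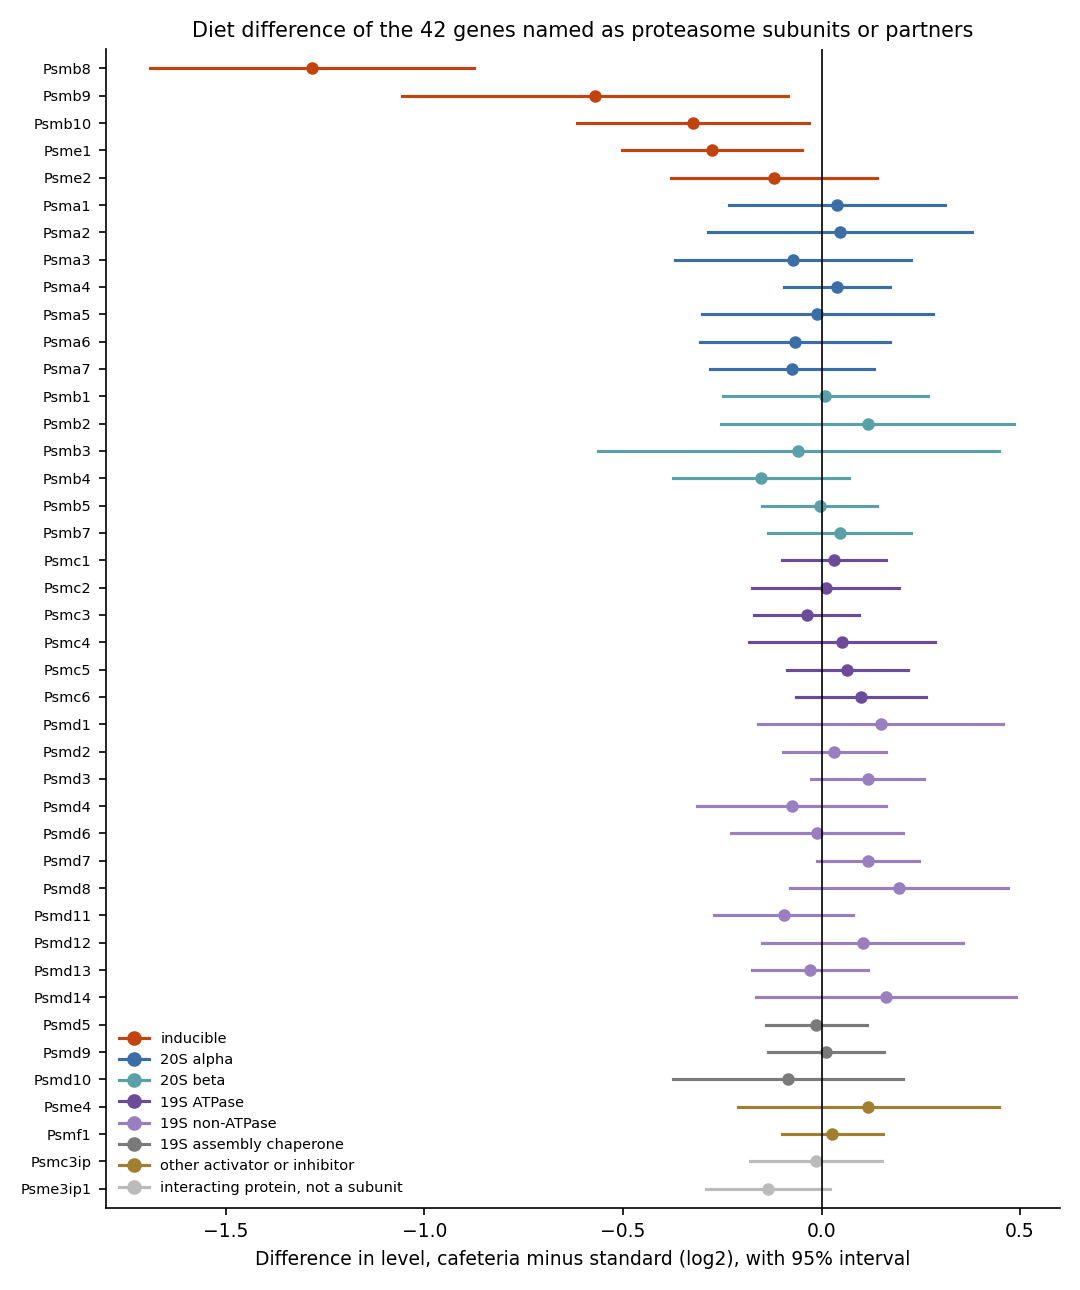
Difference in level, cafeteria minus standard (log2, horizontal axis), with its 95% interval from limma for each of the 42 genes, coloured by class. The intervals of Psmb8, Psmb9, Psmb10 and Psme1 lie below 0, and those of the other 38 genes include it.

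The remaining 7 members had no call at an unadjusted limma p under 0.05. Psme4, the PA200 activator, had 0.12 ± 0.12, and its further probe sets gave 0.21 ± 0.12 and 0.21 ± 0.15, but its sign turned to -0.04 without cafeteria replicate 2. Psmf1, the inhibitor PI31, had 0.03 ± 0.05. The 19S assembly chaperones Psmd5, Psmd9 and Psmd10 had -0.01, 0.01 and -0.08. Of the genes that are not subunits, Psmc3ip, a meiotic recombination factor, had -0.01 ± 0.06 and Psme3ip1 -0.13 ± 0.06, with 8.58 and 8.57 in cafeteria samples and 8.76, 8.72 and 8.64 in standard samples. The Psme3ip1 groups did not overlap, and it was lower at that threshold without standard replicate 3. For 15 of the 42 genes at least 2 arrays held the identical value, as for Psmd5, with 2 distinct values over the 5 arrays. Spreads of such genes can be too small.

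The genes around the inducible subunits were read next. On chromosome 20 the RefSeq order is Tap2, Psmb8, Tap1, Psmb9, within the RT1 complex, the rat major histocompatibility complex. Tap1 and Tap2 form the peptide transporter of the endoplasmic reticulum. Tap1 read 7.35 and 7.18 in cafeteria samples and 7.44, 7.82 and 7.67 in standard samples, a difference of -0.38 ± 0.14 (limma adjusted p = 0.376), without overlap. Tap2, given as the other neighbour of Psmb8, read 7.57 and 7.58 in cafeteria samples and 7.80, 7.21 and 7.70 in standard samples, a difference of 0.0039 ± 0.20. On chromosome 15, Psme1 and Psme2 lie close together, with Irf9 nearby.

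In the class I peptide loading list, 10 of 11 genes were measured, and 2 were lower at an unadjusted limma p under 0.05, with 0 higher. Over all probe sets tested, 6.62% were lower and 6.05% higher at that threshold. The lower genes of the list were Tap1 and Tapbp, the tapasin bridge between the transporter and class I molecules. Tapbp had -0.47 ± 0.14 (limma adjusted p = 0.321). The median of the list was -0.03. Genes for the general folding factors Calr, Canx and Pdia3, singled out after their values were seen, had -0.0079, 0.0066 and 0.01.

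Interferon signalling genes were lower in 9 of 12 measured cases, with a list median of -0.19. At an unadjusted limma p under 0.05, 4 of the 12 were lower and 0 higher, beside 6.62% and 6.05% of all probe sets. Irf1, a transcription factor that interferon gamma induces, read 8.45 and 8.51 in cafeteria samples and 9.06, 9.22 and 9.02 in standard samples, a difference of -0.62 ± 0.08 (limma adjusted p = 0.222). Irf8, a factor of myeloid and B cells, had -1.04 ± 0.30, but -0.63 without cafeteria replicate 2. Irf9, a subunit of the complex that type I interferon activates, had -0.70 ± 0.18, and Ifngr1, the ligand-binding chain of the interferon gamma receptor, had -0.29 ± 0.07. Ifng itself did not pass the filter on dim probe sets, with 2.94 to 2.95 on all arrays. Of the GTPases and effectors that interferon induces, all 7 measured were lower, with a median of -0.63. At an unadjusted limma p under 0.05, 6 of them were lower, beside 6.62% of all probe sets. These were Irgm at -0.64, Gbp2 at -0.38, Gbp4 at -0.48, Igtp at -0.62, Mx1 at -1.02 and Isg15 at -0.75. The mean over all 7 was 7.05 and 6.90 in cafeteria samples. It was 7.35, 7.78 and 7.74 in standard samples, so standard replicate 1 lay nearest the cafeteria arrays.

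**Figure D4:**
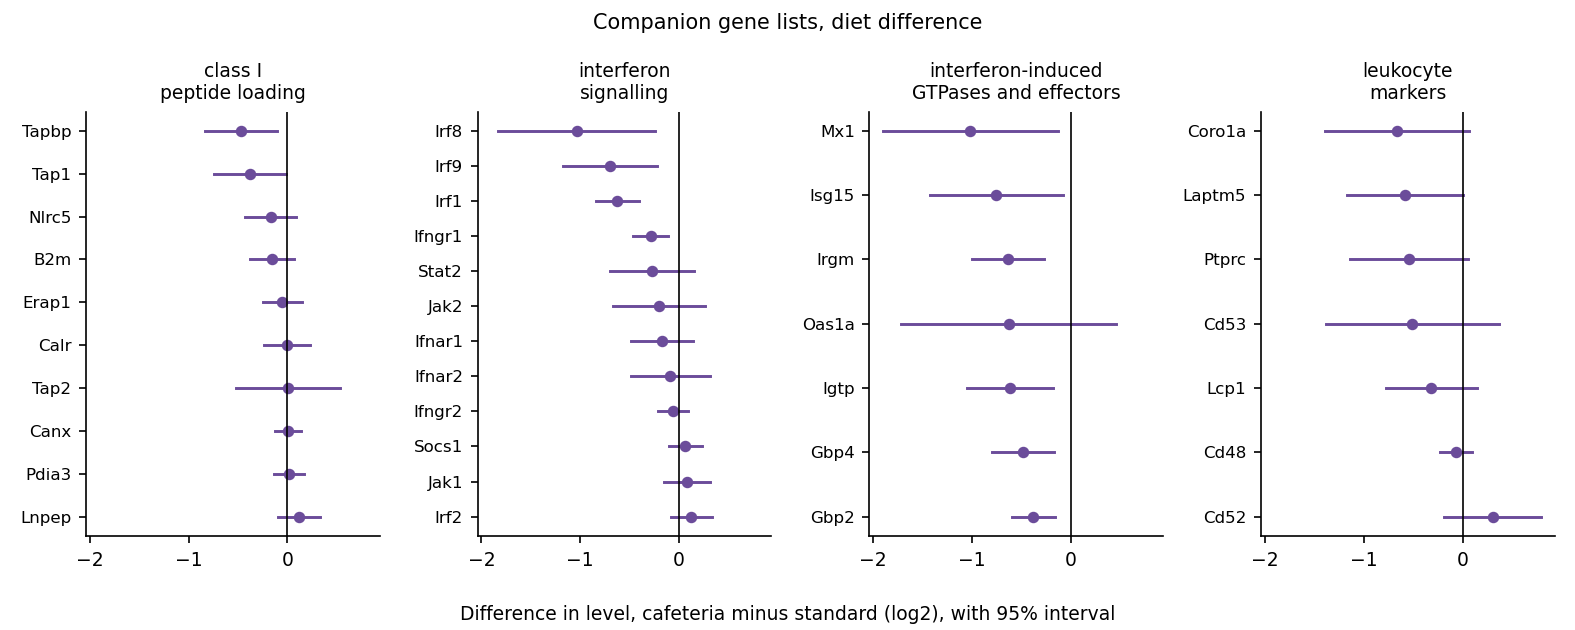
Difference in level, cafeteria minus standard (log2, horizontal axis), with its 95% interval from limma for the measured genes of 4 lists. All 7 interferon-induced genes lie below 0, the class I loading list is led by Tapbp and Tap1, and the intervals of all 7 leukocyte markers include 0.

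Markers of immune cells, many of which express the immunoproteasome at rest, mostly had lower means in cafeteria samples, with 0 at an unadjusted limma p under 0.05 among leukocyte, T cell, B cell and macrophage markers. The mean over 7 leukocyte markers was 8.76 and 8.50 in cafeteria samples and 9.18, 8.98 and 8.74 in standard samples, overlapping by a narrow margin, with 6 of 7 lower and a median difference of -0.51. The exception was Cd52, at 0.31 ± 0.19, on a dim probe set that read 4.22 to 4.93. Ptprc, the pan-leukocyte phosphatase CD45, had -0.55 ± 0.22 (limma adjusted p = 0.425) and Laptm5 -0.58 ± 0.22 (limma adjusted p = 0.401). Without cafeteria replicate 2 they were at -0.27 and -0.34, and without cafeteria replicate 1 both were at -0.82. T cell markers were lower in 8 of 8 cases, with list means of 5.64 and 5.09 in cafeteria samples and 6.18, 6.01 and 5.66 in standard samples. Some of them were dim: Cd5 read 3.70 to 5.07 and Cd8a 4.39 to 5.13, where the filter on dim probe sets lay at 4.28. Macrophage markers were lower in 8 of 8, with list means of 9.71 and 9.42 in cafeteria samples and 10.03, 9.99 and 9.56 in standard samples, where the groups overlapped. The 5 endothelial markers measured were all lower, with list means of 8.44 and 8.89 in cafeteria samples and 9.25, 9.12 and 9.16 in standard samples. Of these, 2 were lower at an unadjusted limma p under 0.05, beside 6.62% of all probe sets. They were Sox17 at -0.76 ± 0.12 and Egfl7 at -0.65 ± 0.12. The 6 adipocyte markers were all higher, with a median difference of 0.27. At that threshold 2 of them were higher, beside 6.05% of all probe sets, Cidec at 0.39 ± 0.11 and Lipe at 0.35 ± 0.12. The part of these markers in the differences of the inducible subunits was not tested.

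Genes that build, assist or control the constitutive proteasome were read last. Of 9 assembly genes measured, 5 were higher and 3 lower, with 0 at an unadjusted limma p under 0.05. Psmg2, an alpha ring chaperone, had 0.17 ± 0.13, and Ecpas, an adaptor of the assembled particle, 0.12 ± 0.08. With 1 array left out, Psmg2 ran from 0.06 without standard replicate 3 to 0.25 without cafeteria replicate 1, and Ecpas from 0.06 without cafeteria replicate 2 to 0.18 without cafeteria replicate 1. Among 10 partners of the proteasome 8 were higher, with a median of 0.11. At an unadjusted limma p under 0.05, 2 were lower, beside 6.62% of all probe sets. Those 2 were the ubiquitin shuttle Ubqln2, at -0.22 ± 0.05 (limma adjusted p = 0.282), and Zfand5, a zinc finger activator of the proteasome, at -0.31 ± 0.10 (limma adjusted p = 0.349). Zfand5 was at -0.19 without cafeteria replicate 2 and at -0.43 without cafeteria replicate 1. Over all arrays, Ubqln2 and Zfand5 had differences larger in size than any of the 30 constitutive subunits on the probe set standing for each. The same held for Txnl1, a partner of the 19S particle chosen after its value was seen, at 0.30 ± 0.12. The other Psmc6 probe sets, at 0.34 and 0.37, exceeded each of them in size. Of 8 genes listed for the transcription control of constitutive subunits, not all of them transcription factors, 0 reached that threshold. Nfyc, a subunit of the CCAAT-binding factor, had -0.16 ± 0.09, and the unfoldase Vcp 0.11 ± 0.08. Vcp was at 0.0056 without cafeteria replicate 2, and Nfyc at -0.07 without cafeteria replicate 1. The ubiquitin-activating enzymes Uba6 and Uba1, the 2 of 6 ubiquitin list genes measured, had -0.14 ± 0.10 and -0.07 ± 0.09, with -0.06 for Uba6 without standard replicate 1 and -0.03 for Uba1 without standard replicate 3.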

How the data were processed

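Groups follow the diet that each sample's title gives. The values are log2 expression levels, 1 per probe set and array, as the authors deposited them; the submitters' processing notes name RMA and affy, without versions. RMA gives the arrays similar distributions, which can hide a shift common to most transcripts, and its summary leaves identical values on several arrays. From the 31099 probe sets, 57 array controls were left out, and 21729 with a mean above the 30th percentile were tested. The diet test was limma's (version 3.58.1, R 4.3.3; lmFit, then eBayes), two-sided, with Benjamini-Hochberg adjustment over all probe sets tested, 3 residual and 1.50 prior degrees of freedom. The procedure was run on simulated data with independent normal noise, where the check was that mean estimates lay near the true changes. That check does not cover how often probe sets are wrongly called. P-values measure the spread between these samples. Exact permutation tests, two-sided, used the absolute difference of means. Symbols came from GEO's platform annotation, with identifiers looked up in RefSeq, where 0 symbols changed. Motifs were searched on both strands. All 42 members passed the filter.

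The members, the companion lists and the tests were chosen with earlier results of these data known. Genes were named by rule: all inducible genes, their counterparts, Psme4 and Psmf1, the highest and lowest difference and the smallest p of each constitutive class, and of each companion list up to 6 genes at an unadjusted p under 0.05, or its 2 smallest p. Of the marker lists, those of B cells (2 of 2 measured lower) and mesothelium (2 of 3 measured higher) had 0 genes at that threshold, as did acinar cells and smooth muscle. Alternatives were other filters, normalizations, variance models and probe sets, leaving out each array, and a replicate block. Python 3.11.15 and matplotlib 3.10.9 made the figures.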

Additional observations from a re-analysis of the deposited data

How the results depend on the processing

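All 5 inducible genes kept a lower mean in cafeteria samples under all 13 alternatives of the probe set test, which was largely fixed in advance. Other filters do not change a gene's difference. For the 4 genes without overlap, no choice or weighting of the arrays can turn its sign. Psmb8 lay between -1.45 and -1.12, Psmb9 between -0.69 and -0.42 and Psmb10 between -0.42 and -0.23. Psme1 lay between -0.34 and -0.22 and Psme2 between -0.17 and -0.05. No alternative called a probe set at an adjusted p of 0.05. Over the alternatives the adjusted p of Psmb8 ran from 0.144 to 0.490. The count of members lower at an unadjusted limma p under 0.05 was 2 (Psmb8 and Psmb9) without standard replicate 1 or 2. It was 4 without standard replicate 3, where Psme3ip1 joined Psmb8, Psmb10 and Psme1. The shares of all probe sets lower were 5.06%, 4.59% and 5.97% without standard replicates 1, 2 and 3. With array weights the count of lower members was 3, without Psmb9, beside 5.66% of all probe sets. The count of members higher at that threshold was 1 with no filter on dim probe sets (Psmd7) and 0 to 4 with 1 array left out, the 4 being Psmc5, Psmc6, Psmd7 and Psmd12 without cafeteria replicate 1. Over all probe sets, leaving out 1 array gave 998 to 2164 lower and 967 to 2010 higher, with the highest counts without cafeteria replicate 1. A lone cafeteria array was assumed to vary like the standard ones.

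The direction turned for 7 of the named genes. Psmb5 was 0.028 with equal array medians and -0.031 to 0.015 with 1 array left out. Psma2 was -0.056 and Psmb2 -0.0069 with the replicate block, and with 1 array left out they ran from -0.056 to 0.12 and from -0.0069 to 0.19. With 1 array left out, Psme4 ran from -0.035 to 0.27, and the cell markers Ms4a1, Wt1 and Krt19 from -1.90 to 0.16, from -1.08 to 0.12 and from -0.16 to 0.72. The cause was not tested. The medians of the inducible, 20S and 19S genes moved by less than the spread between replicates under the alternatives run, and the ratio of Psmb8 to Psmb5 stayed between -1.46 and -1.10. The titles share replicate numbers 1 and 2, but deviations of same-numbered arrays correlated at 0.08 and -0.04, so the numbers were not taken as pairs. With the replicate block the same 4 inducible genes were lower at an unadjusted limma p under 0.05, beside 5.73% of all probe sets. The median of the inducible genes was then -0.40. The planned ratio of Psmb9 to Psmb6 was not run, since Psmb6 has no probe set of its own. How far the signal of each probe set lies above background was not analysed here.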
